A study of Mus musculus with 6 samples.

Results

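The genes described here are 10 genes of MHC class I and class II antigen presentation, measured in the left ventricle of obese mice. They were chosen by gene symbol in the array's probe-to-gene table, and they are 10 of 18194 genes with at least 1 probe set of their own. 6 belong to class I presentation (H2-D1, H2-K1, B2m, Tap1, Tap2 and Psmb8) and 4 to class II (H2-Aa, H2-Ab1, H2-Eb1 and Cd74). A total of 31 probe sets name exactly 1 of them, 22 for class I and 9 for class II, and 3 more that name a class I gene together with other genes were not used. The Lira group was 3 male C57BL/6 mice given the agent that the labels call Lira, whose full name, dose and duration they do not give. The other group was 3 male C57BL/6 mice given placebo. All 6 mice were 6 months old and had a high fat diet for 16 weeks, so no lean mouse enters the comparison, and each gave 1 array. C57BL/6 is an inbred strain, and the design text speaks of 10 mice, of which those beyond these 6 were not analysed here.

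Class I molecules sit on nearly all nucleated cells and show peptides from the cell's own cytosol to CD8 T cells. The proteasome cuts these peptides, with Psmb8 as one of the subunits that interferon exchanges into it, and the Tap1 and Tap2 transporter carries them into the endoplasmic reticulum, where they meet a heavy chain (H2-K1 or H2-D1) and the light chain B2m. Class II molecules, pairs of an alpha and a beta chain such as H2-Aa with H2-Ab1, show peptides from engulfed material to CD4 T cells and are made mainly by macrophages, dendritic cells and B cells. Cd74, the invariant chain, guides them through the cell. In the heart these cells are a minority among muscle cells, endothelium and fibroblasts. Interferon gamma raises both pathways, class I through the coactivator Nlrc5 and class II through Ciita.

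The arrays reported a linear fluorescence signal in arbitrary units, scaled by the authors so that the 2% trimmed mean was 150 on each array, and the median signal lay between 28.6 and 39.6. Pairs of arrays correlated at 0.974 to 0.982 over all tested genes on the log2 scale, and no array stood far from the others by this measure. The median was lowest on Lira replicate 3 and highest on Lira replicate 2, and the lowest correlation was between them. The sample descriptions give left ventricle as the source while the extraction text names blood. Cardiac muscle markers were present, with Tnnt2, cardiac troponin T, at 34475 to 41280 on Lira arrays and 34000.3 to 37055 on placebo arrays. The hemoglobin probe set measured, Hba-a1, did not exceed 31.8 on any array. With arrays, precision depends in part on how many were run, here 3 in each group. The design text has 1 heart taken from each mouse, so the spread within a group joins differences between animals with those in the handling of each array. With 1 array per mouse these cannot be told apart.

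The promoters of 7 of the 10 genes were in the RefSeq promoter table (build GRCm38.p6), each window running from 250 bases before to 50 bases after the gene start. They are shown because shared promoter elements are the part of what is known of how these pathways are switched on together, and 4 of them follow, 5′ to 3′, with matches of the motifs below in capitals.
H2-K1, chr17:34000298-34000597, minus strand: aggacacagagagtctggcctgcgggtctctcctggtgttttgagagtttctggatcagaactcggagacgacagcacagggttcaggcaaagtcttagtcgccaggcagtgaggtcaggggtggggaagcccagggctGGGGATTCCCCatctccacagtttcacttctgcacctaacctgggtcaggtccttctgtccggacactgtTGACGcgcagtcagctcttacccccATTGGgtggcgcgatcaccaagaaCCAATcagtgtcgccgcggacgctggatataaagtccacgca
B2m, chr2:122147437-122147736, plus strand: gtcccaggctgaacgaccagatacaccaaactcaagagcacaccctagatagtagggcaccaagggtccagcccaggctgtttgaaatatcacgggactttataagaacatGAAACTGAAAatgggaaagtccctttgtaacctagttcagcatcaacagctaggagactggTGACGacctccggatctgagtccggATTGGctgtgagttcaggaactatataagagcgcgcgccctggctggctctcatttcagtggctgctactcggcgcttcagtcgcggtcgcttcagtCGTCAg
H2-Aa, chr17:34287774-34288073, minus strand: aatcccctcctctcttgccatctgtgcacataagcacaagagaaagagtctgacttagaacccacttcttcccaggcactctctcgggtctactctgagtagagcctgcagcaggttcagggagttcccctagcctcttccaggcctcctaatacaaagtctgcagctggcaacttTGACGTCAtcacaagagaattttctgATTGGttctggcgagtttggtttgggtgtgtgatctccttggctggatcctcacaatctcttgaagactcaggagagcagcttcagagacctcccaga
H2-Eb1, chr17:34305617-34305916, plus strand: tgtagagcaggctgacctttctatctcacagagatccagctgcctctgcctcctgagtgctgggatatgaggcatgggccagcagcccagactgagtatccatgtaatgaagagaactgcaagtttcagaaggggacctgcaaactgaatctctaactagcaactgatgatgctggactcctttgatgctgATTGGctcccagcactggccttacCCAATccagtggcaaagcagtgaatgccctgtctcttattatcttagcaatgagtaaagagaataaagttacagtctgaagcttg
H2-K1 here is the first of its 2 windows in the table. The motifs reported, searched on both strands, were ATTGG (the Y box, an inverted CCAAT element), TGACG (the core of the neighbouring element that CREB family factors bind, added after the sequences were seen), the kappa B site (GGGGA, any base, TCCC) and the core of the interferon-stimulated response element (GAAA, any 2 bases, GAAA). Matches of different motifs did not overlap, while those of the kappa B site and, in H2-Aa, of TGACG overlapped their own match on the other strand. ATTGG was present in 6 of the 7 promoters (all but Psmb8), against 37.4% of all 32851 windows, and TGACG in 5 of 7, against 20.8%. The class II promoters held ATTGG 48 bases before the gene start in H2-Aa (position -48) and at -59 in H2-Eb1. The kappa B site matched in the class I heavy chain genes H2-K1 and H2-D1, against 0.323% of all windows. The interferon element matched in B2m alone, at -139, against 3.44% of windows. A match is a description of these letters and not a bound site. Variants of an element that differ from these letters were not counted, so a missing match does not show that the element is absent.

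The comparison asks what Lira does to the heart of obese mice, here for the presentation genes. Their mean signals were higher with Lira than with placebo in all 10 genes, and 0 of them passed the test over all genes. On the scale log2(signal + 16), the changes corresponded to folds of 1.02 to 1.32. The brightest array in 9 of the 10 was the same one, Lira replicate 2. In bulk ventricle, a difference in the number of expressing cells and a difference in RNA per cell cannot be told apart. Signals below are given for replicates 1, 2 and 3 of each group, log2 changes are Lira minus placebo on the scale log2(signal + 16), and each gene is read on its brightest probe set.

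Among the class II genes, H2-Aa, the alpha chain of the I-A molecule, had signals of 1332, 1818 and 1344 with Lira, against 1116, 1204 and 1288 with placebo. All 3 Lira arrays lay above all 3 placebo arrays, though replicates 1 and 3 were close to the highest placebo array. The log2 change was 0.30 ± 0.12 (SE), with an adjusted p of 0.76 in limma. Its partner H2-Ab1, the beta chain, measured 349.7, 575 and 397 with Lira, against 426, 325 and 318 with placebo. Lira replicate 2 was the one Lira array above placebo replicate 1, and the groups overlapped (log2 change 0.27 ± 0.17, adjusted p = 0.87, limma). H2-Eb1, the beta chain of the I-E molecule, measured 544, 778 and 596 with Lira, against 466, 519 and 570.5 with placebo. Here 2 Lira arrays exceeded every placebo array (log2 change 0.28 ± 0.13, adjusted p = 0.83). The C57BL/6 strain makes no complete I-E molecule, since its gene for the partner chain is defective, so H2-Eb1 reports transcript and not a surface molecule. Cd74 measured 480.4, 649.9 and 418 with Lira, against 395, 419.5 and 399 with placebo. The placebo arrays lay within a narrow band and the Lira arrays were spread, with replicate 3 inside that band (log2 change 0.32 ± 0.14, adjusted p = 0.81). Without Lira replicate 2 the log2 changes were 0.15 for H2-Aa, 0.07 for H2-Ab1, 0.14 for H2-Eb1 and 0.14 for Cd74. That of H2-Ab1 was 0.42 without Lira replicate 1.

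The class I genes fall into the molecules that carry the peptide and those that supply it. H2-D1, a heavy chain, measured 2759.8, 3136 and 2664 with Lira, against 2521, 2573 and 2099.6 with placebo. The groups did not overlap, and placebo replicate 3 was the low array (log2 change 0.25 ± 0.10, adjusted p = 0.76 in limma). H2-K1, the other heavy chain, measured 2280.0, 3327 and 2406 with Lira, against 2341, 2535 and 2039 with placebo. Lira replicate 2 exceeded every placebo array, and the other Lira arrays lay inside the placebo range (log2 change 0.20 ± 0.13, adjusted p = 0.87). The log2 change of H2-K1 was 0.03 without Lira replicate 2, 0.30 without Lira replicate 1 and 0.11 when placebo replicate 3 was dropped, and that of H2-D1 was 0.16 without placebo replicate 3. B2m, the light chain shared by the class I molecules, measured 5105, 7423 and 5711 with Lira, against 4681, 6586 and 6561 with placebo. The groups overlapped widely, and the log2 change of 0.03 ± 0.15 (adjusted p = 0.99) turned to -0.12 without Lira replicate 2, to -0.13 without placebo replicate 1 and to -0.02 with array weights. It was 0.15, 0.07, 0.12 and 0.11 without Lira replicate 1, Lira replicate 3, placebo replicate 2 and placebo replicate 3.

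Of the genes that supply peptides, Tap2, a subunit of the transporter, measured 192, 196 and 175.5 with Lira, against 134, 162 and 120.2 with placebo. It had the highest log2 change of the 10 genes, 0.40 ± 0.15, with an adjusted p of 0.70 in limma, and its 3 Lira arrays were close together above the placebo range. Tap1, the other subunit, measured 106, 103 and 84.7 with Lira, against 62.2, 107 and 74.2 with placebo. Placebo replicate 2 was its brightest array, so the groups overlapped (log2 change 0.25 ± 0.20, adjusted p = 0.89), and its log2 change was 0.11 without placebo replicate 1 and 0.43 without placebo replicate 2. Psmb8 measured 223, 273 and 216 with Lira, against 196, 175 and 199 with placebo. The groups did not overlap (log2 change 0.30 ± 0.14, adjusted p = 0.82), and the log2 change was 0.20 without Lira replicate 2.

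**Figure D1:**
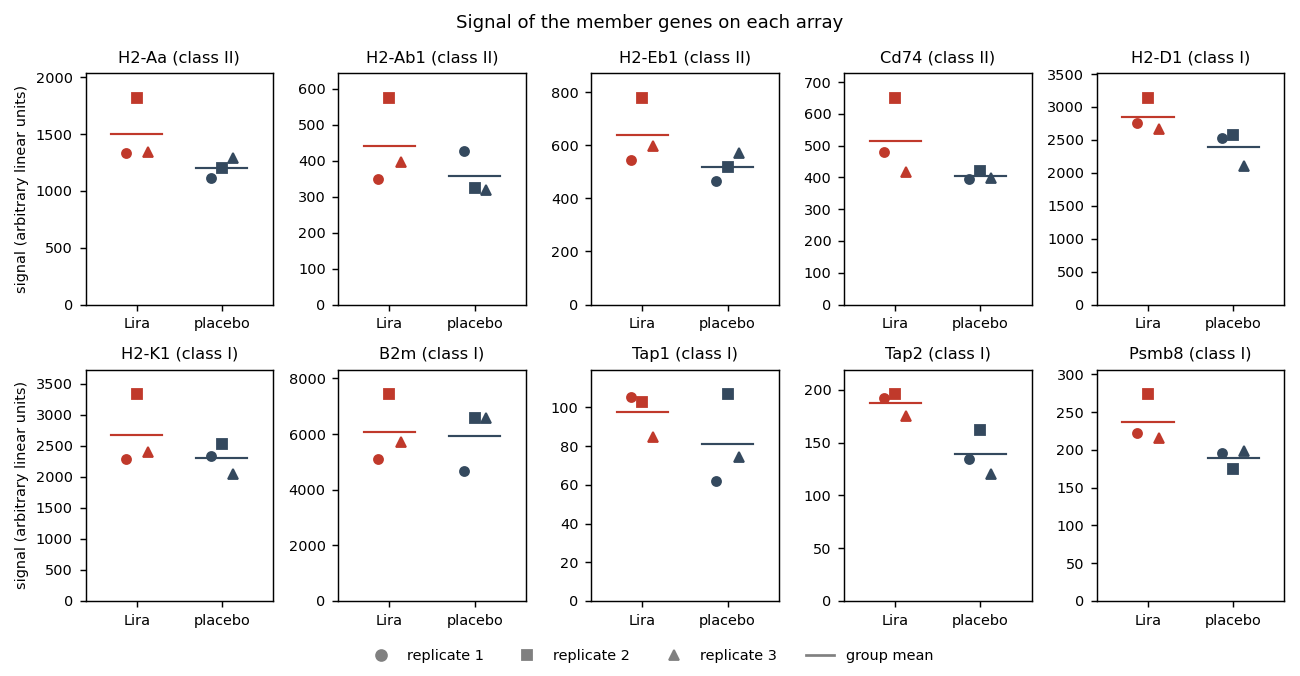
Signal of each of the 10 genes on each array, in arbitrary linear units from 0, with Lira at the left and placebo at the right, 1 point per mouse (symbol shape gives the replicate number) and a bar at the group mean. Lira replicate 2, the red square, is the highest point in 9 of 10 panels, and the groups are separate in H2-Aa, H2-D1, Tap2 and Psmb8.

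In limma with Benjamini-Hochberg adjustment, 7 of 12736 genes (0.0550%) passed an adjusted p of 0.05, and 0 of the 10 presentation genes did. At an unadjusted p under 0.05, 5 of the 10 were counted, H2-Aa, Cd74, H2-D1, Tap2 and Psmb8, where 2.87% of all genes were counted with a positive change and 6.00% in either direction. The log2 change was above 0 in 10 of 10, against 52.0% of all genes, with a median of 0.28, against 0.01 over all genes. All 3 Lira arrays lay above all 3 placebo arrays in 4 of 10 genes, against 5.99% of all genes. Lira replicate 2 was the highest array in 9 of 10 genes, against 21.8% of all genes, where the share ran from 12.8% to 21.8% over the 6 arrays. These 10 genes were chosen with results of the same arrays known, and they vary together, so the counts are descriptions. Without Lira replicate 2, the log2 change was above 0 in 9 of 10 genes (49.5% of all genes) with a median of 0.15, and 1 gene, Tap2, had an unadjusted p under 0.05 (3.02% of all genes with a positive change). In 4 of 10 genes both remaining Lira arrays lay above all placebo arrays, against 11.3% of all genes. The count at an unadjusted p under 0.05 was 3 without placebo replicate 1, 2 without placebo replicate 2 and 2 without placebo replicate 3. Over all 12736 genes it was 858, 679 and 631 in the same order, in either direction.

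The 31 probe sets allow a check within each gene. On Affymetrix arrays the endings _s_at and _x_at mark probe sets whose probes may match several transcripts, and 19 of the 31 carry one, among them all 4 of H2-Aa, all 4 of H2-K1 and 7 of the 9 of H2-D1. The class I heavy chain genes are alike in sequence, so a signal named for one may include others. 25 probe sets passed the filter on low values, and the other 6 (3 of Tap1, 2 of H2-D1 and 1 of Psmb8) had signals of at most 24.6 on any array. Of the 25, 23 had a log2 change above 0, against 51.2% of all 24462 probe sets tested, and 0 passed an adjusted p of 0.05 in limma (0.00818% of all probe sets). At an unadjusted p under 0.05 there were 6 of 25, all above 0, against 2.57% of all probe sets with a positive change and 5.62% in either direction. The groups were separate with Lira above in 5 of 25, against 5.61%, and Lira replicate 2 was the highest array in 20 of 25, against 22.2%. The 9 class II probe sets gave 0.19 to 0.42, all in one direction. The 16 class I probe sets gave -0.25 to 0.40, and the 2 below 0 were dim ones of H2-D1, 1427651_x_at with a mean signal of 27.8 and 1425614_x_at with 23.3. H2-K1 gave 0.09 to 0.32 over 4 probe sets. The second probe set of B2m, 1452428_a_at, measured 5073, 7898 and 5477 with Lira, against 4580, 5651 and 5268 with placebo, a log2 change of 0.23 ± 0.14 and the 2 probe sets of B2m thus gave log2 changes of 0.03 and 0.23.

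**Figure D2:**
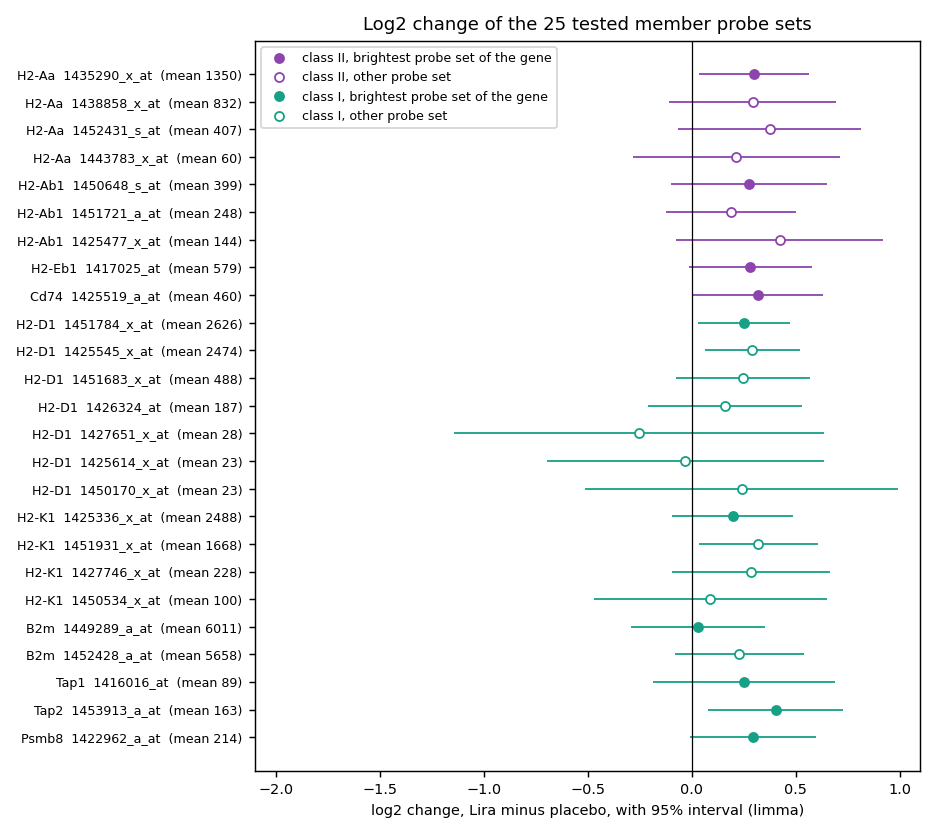
Log2 change, Lira minus placebo, of the 25 tested probe sets with its 95% interval from limma, grouped by gene, with the mean signal in brackets. Filled points are the brightest probe set of a gene, and open points are the others. Of the 25 points, 23 lie right of 0, up to 0.42, and the widest intervals belong to dim probe sets of H2-D1.

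To set class I against class II on each array, each gene was expressed as its log2 deviation from its own mean over the 6 arrays, and the deviations were averaged within a class. The class II mean was -0.04, 0.48 and -0.0047 on Lira replicates 1, 2 and 3, against -0.15, -0.16 and -0.13 on placebo replicates 1, 2 and 3. The placebo arrays were nearly equal, the Lira arrays all lay above them, and replicate 2 stood apart from the other two. The class I mean was 0.05, 0.30 and 0.01 on the Lira arrays, against -0.20, 0.03 and -0.18 on the placebo arrays. Placebo replicate 2 lay inside the Lira range here, so the groups overlapped.

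The Lira minus placebo difference was 0.24 ± 0.12 (SE over arrays) for class I and 0.29 ± 0.17 for class II, and without Lira replicate 2 it was 0.15 and 0.13. The difference class I minus class II was 0.08, -0.18 and 0.01 on the Lira arrays, against -0.05, 0.19 and -0.06 on the placebo arrays. The groups overlapped, with Lira replicate 2 below every placebo array and placebo replicate 2 above every Lira array. They had means of -0.03 ± 0.13 for Lira and 0.03 ± 0.14 for placebo (SD, n = 3 each), and the difference between them was -0.06 ± 0.11 (SE). The extremes were Lira replicate 2, where class II was the higher of the 2 classes, and placebo replicate 2, where class I was. Split by role, which was done with the values known, the peptide supply genes (Tap1, Tap2, Psmb8) had means of 0.18, 0.27 and 0.03 with Lira, against -0.25, -0.0011 and -0.22 with placebo. These groups did not overlap, and the difference was 0.32 ± 0.10 with all arrays and 0.26 without Lira replicate 2. The molecules that carry the peptide (H2-D1, H2-K1, B2m) had means of -0.08, 0.34 and -0.02 with Lira, against -0.15, 0.06 and -0.14 with placebo. Those groups overlapped, and the difference of 0.16 ± 0.15 became 0.03 without Lira replicate 2. No test was run on these means, since they are scores over chosen genes.

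**Figure D3:**
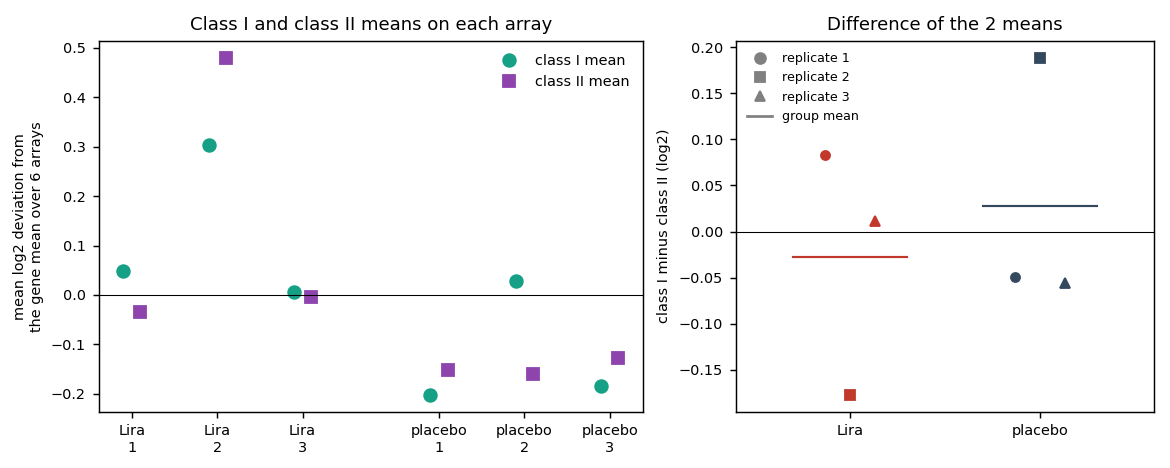
Left, the class I and class II means on each array, as the mean log2 deviation of the genes from their own mean over 6 arrays, Lira arrays first. Right, class I minus class II on each array, with a bar at the group mean. Class II reaches 0.48 on Lira replicate 2, and the difference spans -0.18 to 0.08 with Lira and -0.06 to 0.19 with placebo.

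Other genes of the 2 pathways were read from lists. Of 20 further class I pathway genes listed, 11 were tested, 8 with a log2 change above 0 (52.0% of all genes) and 3 below. Their median was 0.04, and 0 passed an adjusted p of 0.05 in limma. With an unadjusted p under 0.05 there were 0. Psmb10, a proteasome subunit that interferon exchanges alongside Psmb8, measured 490.4, 578 and 428.5 with Lira, against 568, 575 and 647 with placebo. Its log2 change was -0.26 ± 0.12 (adjusted p = 0.82), with 1 Lira array inside the placebo range. Erap1, the aminopeptidase that trims class I peptides, measured 98.2, 109 and 94.8 with Lira, against 118, 122 and 116 with placebo, and all 3 Lira arrays lay below the placebo arrays (log2 change -0.21 ± 0.15, adjusted p = 0.88). Psmb9, chosen after its values were seen because it too is an interferon-exchanged subunit, had a log2 change of 0.14 ± 0.20 with overlapping groups.

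Of 17 further class II pathway genes, 14 were tested, 5 with a log2 change above 0 (52.0% of all genes) and 9 below. Their median was -0.02, and 0 passed an adjusted p of 0.05 in limma. At an unadjusted p under 0.05 there was 1 of 14, Ctss, near the 6.00% of all genes. Ctss, the protease cathepsin S that removes the invariant chain from class II molecules, measured 603, 463 and 451.5 with Lira, against 363, 404 and 454 with placebo (log2 change 0.30 ± 0.13, adjusted p = 0.81, limma). Lira replicate 1 was its high array, not replicate 2, and the groups overlapped. H2-DMa, a chain of the molecule that loads peptides onto class II, was dim, at 85.7, 68.7 and 30.5 with Lira, against 40.4, 57.9 and 31.4 with placebo (log2 change 0.34 ± 0.30, adjusted p = 0.91). Here too replicate 1 was the highest Lira array, and the groups overlapped. The coactivators of the 2 pathways were looked at after their values were seen. Ciita measured 37.0, 44.6 and 35.0 with Lira, against 34.7, 48.8 and 35.4 with placebo, and Nlrc5 measured 46.8, 128 and 72.9 with Lira, against 42.9, 93.6 and 87.2 with placebo. Both were dim with overlapping groups, and the log2 changes were -0.02 ± 0.26 for Ciita and 0.09 ± 0.30 for Nlrc5.

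Of 13 genes of interferon gamma signalling, 9 were tested, 5 with a log2 change above 0 (52.0% of all genes) and 4 below. Their median was 0.01, and 0 passed the adjusted or the unadjusted threshold of 0.05 in limma. Irf1, a transcription factor that interferon gamma induces, measured 386, 356 and 366 with Lira, against 286, 293 and 350.1 with placebo. All 3 Lira arrays lay above the placebo arrays (log2 change 0.25 ± 0.12, adjusted p = 0.83). Irf2, its relative, measured 128, 123 and 112 with Lira, against 85.5, 99.6 and 113 with placebo, with overlapping groups (log2 change 0.26 ± 0.16, adjusted p = 0.87). The Ifng probe set itself did not exceed 15.8 on any array and was not tested.

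Of 6 costimulation and checkpoint ligands, which accompany the peptide signal to T cells, 5 were tested. Of these, 2 had a log2 change above 0 (52.0% of all genes) and 3 below, and 0 passed an adjusted p of 0.05 in limma. Icosl, the ligand of the T cell costimulator ICOS, measured 112, 123 and 83.6 with Lira, against 75.2, 82.7 and 51.2 with placebo. The groups were barely apart (log2 change 0.52 ± 0.21, adjusted p = 0.76, with an unadjusted p of 0.026 as the 1 gene under 0.05). Cd274, which encodes the checkpoint ligand PD-L1, measured 63.0, 83.9 and 84.2 with Lira, against 47.4, 61.8 and 73.9 with placebo, with overlapping groups (log2 change 0.28 ± 0.21, adjusted p = 0.89). Of 7 receptors that read MHC molecules, Cd8a and the NK receptor gene Klrk1 were bright enough to be tested. Their mean signals were 53.6 and 27.5 with Lira, against 35.1 and 21.9 with placebo, and both groups overlapped. Cd4 did not exceed 5.24 on any array.

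Markers of the cells that could carry these transcripts were read on the same arrays. Of 8 general leukocyte markers, 8 had a log2 change above 0, against 52.0% of all genes, with a median of 0.18. Their summed signal was 983 to 1234 with Lira, against 866 to 984 with placebo. Tyrobp, an adaptor of myeloid receptors, had a mean of 264 with Lira, against 228 with placebo, and the lysosomal protein gene Laptm5 162, against 153. The mean deviation of this list was 0.24, 0.16 and -0.05 on the Lira arrays, against -0.22, -0.02 and -0.11 on the placebo arrays, highest on Lira replicate 1. Of 11 macrophage markers 9 had a log2 change above 0 (52.0% of all genes), with a median of 0.18. Their summed signal was 4878 to 5836 with Lira, against 4338 to 5089 with placebo. At an unadjusted p under 0.05 in limma there was 1 leukocyte marker and 1 macrophage marker, both with a positive change, against 2.87% of all genes. All 3 Lira arrays lay above all placebo arrays in 1 leukocyte marker and 3 macrophage markers, against 5.99% of all genes, and below them in 0. Lyz2, the macrophage lysozyme, had a mean of 1749 with Lira, against 1459 with placebo, and Csf1r, the receptor that macrophages need to survive, 1003, against 958. Below 0 were Mertk, with a mean of 152.7 with Lira, against 167.8 with placebo, and Fcgr1 with 39.1, against 46.0. Both were named after their values were seen. On Lira replicate 2, where class II reached 0.48, the list means were 0.16 for general leukocytes, 0.02 for macrophages, -0.11 for dendritic cells and 0.40 for B cells. Without Lira replicate 2 the median log2 change was 0.21 for the leukocyte list and 0.19 for the macrophage list. The part of these cells in the results on class I and class II was not tested.

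Dendritic cell markers gave 3 of 5 tested genes above 0 (52.0% of all genes) and a summed signal of 224 to 257 with Lira, against 209 to 245 with placebo. Zbtb46, a transcription factor of dendritic cells that endothelium also makes, had a mean of 98.5 with Lira, against 74.7 with placebo, and Itgax 53.1, against 36.3. Below 0 were Batf3, a transcription factor of dendritic cells with a mean of 22.3 with Lira, against 40.1 with placebo, and Cd209a with 34.2, against 42.0, both named after their values were seen. All 3 Lira arrays lay below the placebo arrays in Batf3, which was dim, and all 3 lay above them in Zbtb46. Of the B cell markers 3 were tested, all below 0, at summed signals of 55.0 to 139 with Lira, against 72.9 to 143 with placebo, and of the T cell markers 2 were tested. At an unadjusted p under 0.05 in limma there were 0 of the dendritic, B and T cell markers. Cd22 had a mean of 34.4 with Lira, against 54.2 with placebo, and Pax5 28.4, against 30.4. The mean deviation of the B cell list was -0.62, 0.40 and -0.30 on Lira replicates 1, 2 and 3, against -0.28, 0.41 and 0.39 on the placebo arrays, so it lay between 0.39 and 0.41 on Lira replicate 2 and on 2 placebo arrays. Thy1, which other cells also make, had a mean of 106 with Lira, against 99.1 with placebo, and Cd5 22.4, against 24.5. The defining markers Cd79a, Cd79b, Cd3d, Cd3e and Cd3g were below the filter, and Cd3d did not exceed 4.70 on any array.

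Markers of the cell types that make up most of the ventricle were read too. Endothelial markers had a median log2 change of 0.06 over 8 genes (6 above 0 and 2 below), fibroblast markers 0.15 over 6 (4 above 0 and 2 below) and cardiac muscle markers 0.12 over 8 (all above 0). Over all genes 52.0% were above 0. At an unadjusted p under 0.05 in limma there were 0 endothelial markers, 1 fibroblast marker and 1 muscle marker, both with a positive change, against 2.87% of all genes. All 3 Lira arrays lay above all placebo arrays in 0, 1 and 1 of them, against 5.99% of all genes. The muscle marker mean was also highest on Lira replicate 2, at 0.21, where the other 5 arrays lay between -0.09 and 0.05. Eng and Emcn of endothelium had means of 811 and 719.9 with Lira, against 718 and 706 with placebo. Dcn and Lum of fibroblasts had means of 7976 and 1907 with Lira, against 6790.3 and 1791.5 with placebo, while Col1a2, named after its values were seen, had 1060.3 with Lira, against 1160.4 with placebo. Myh6 of heart muscle had a mean of 35228 with Lira, against 32447 with placebo. Slc4a1, the one erythroid marker tested, had a mean of 17.7 with Lira, against 34.6 with placebo (log2 change -0.60 ± 0.32, adjusted p = 0.84, limma). All 3 of its Lira arrays lay below the placebo arrays. Its mean signal of 26.1 was close to the 22.4 of the dimmest gene tested, and a difference in blood content was not tested. Retn, the one fat cell marker tested, had a mean of 31.4 with Lira, against 26.7 with placebo.

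**Figure D4:**
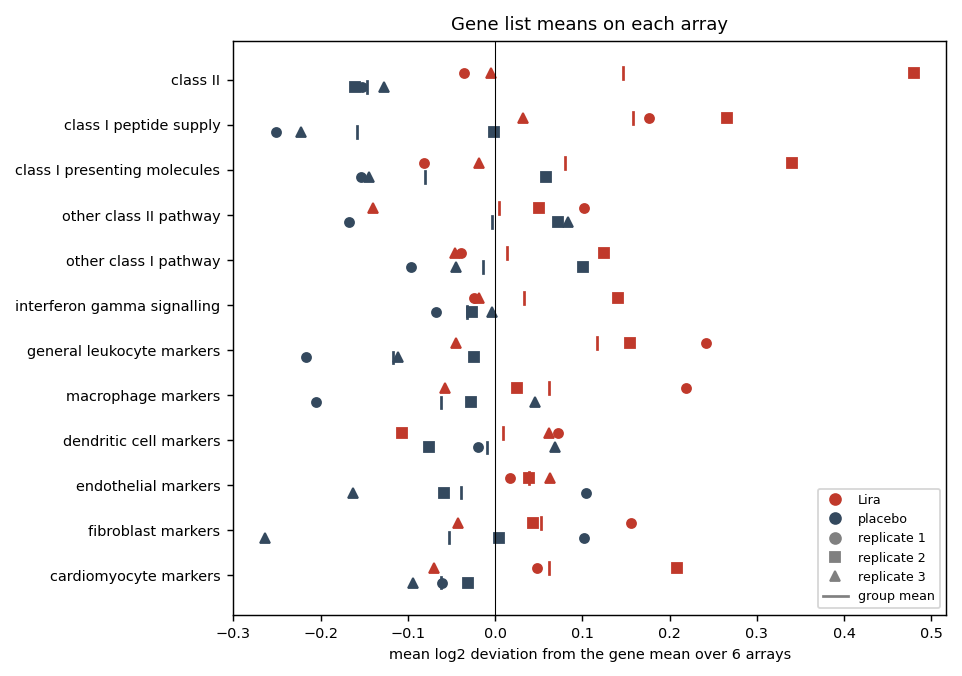
Mean log2 deviation of each gene list on each array, from the gene means over 6 arrays, with Lira in red above placebo in blue, symbol shapes for the replicate number and a bar at the group mean. On Lira replicate 2 the class II mean is 0.48, the macrophage mean 0.02 and the dendritic cell mean -0.11, and the list of 3 B cell markers, not drawn here, stands at 0.40.

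By the smallest root mean square difference over the 6 arrays, the non-member genes whose pattern lay nearest to the class I mean were Slc35e4 (0.02), Zbed4 (0.04), Lpl (0.05) and Nectin3 (0.05), where the class I mean itself has a root mean square of 0.17. Nearest to the class II mean, with a root mean square of 0.22, were Zfp292 (0.05), Hltf (0.06), Ppcdc (0.07) and Prpf4 (0.07). With 6 arrays and 12736 genes, near matches occur among unrelated genes, and these are given as a description. Lpl encodes lipoprotein lipase, which frees fatty acids for heart muscle.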

How the data were processed

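Each probe set has 1 deposited linear intensity for every array, hybridised with biotin-labelled RNA. The submitters' processing notes name Affymetrix Expression Console, with version and summarisation not given in the sources used here. Each array has a 2% trimmed mean of 150, as checked on the values, so only changes relative to other genes can be seen. Of 45101 probe sets, 64 controls were left out, 34945 name 1 gene, 932 name several and 9160 have no name here, and 99.42% of the single-gene probe sets were matched to RefSeq symbols of GRCm38.p6 by gene ID. Each of 18194 genes was read on its brightest probe set as log2(signal + 16), a scale that understates changes of dim genes. Dropping the 30% with the lowest mean log2 kept 12736 genes, the dimmest at a mean signal of 22.4. The contrast Lira minus placebo was fitted with limma 3.58.1 (R 4.3.3), using lmFit and then eBayes with a trend in the prior variance, and two-sided p-values were adjusted by Benjamini-Hochberg over all genes. A second fit took 24462 probe sets. The code was tested on simulated data.

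Genes named are all 10 members, any pathway gene past the threshold and the 2 with the smallest p of each pathway list, the 2 brightest of each marker list, and the 4 nearest in pattern to each class mean. Members and lists were chosen with earlier results of these data known. One promoter motif that was searched is not reported here.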

Additional observations from a re-analysis of the deposited data

How the results depend on the processing

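In 20 alternatives, 0 of the 10 genes passed the adjusted threshold in limma, while 1 to 6 genes or probe sets had an unadjusted p under 0.05. The sign of the log2 change stayed the same in 174 of 177 gene values. The 3 exceptions were all B2m, at -0.022 with array weights, -0.120 when Lira replicate 2 was dropped and -0.130 when placebo replicate 1 was, and with single arrays left out it spanned -0.130 to 0.149. Of 225 probe set values, 218 kept their sign, and those that turned were in 5 probe sets. With single arrays left out they spanned -0.130 to 0.149 in B2m 1449289_a_at, -0.172 to 0.427 in H2-K1 1450534_x_at, and, among dim probe sets of H2-D1, -0.556 to 0.184 in 1427651_x_at, -0.121 to 0.134 in 1425614_x_at and -0.008 to 0.489 in 1450170_x_at. The 5 genes at an unadjusted p under 0.05 became 3 with quantile normalisation and 2 when probe sets of a gene were averaged (which leaves out Tap1). The count was 3 without the _s_at and _x_at probe sets (which leaves out H2-Aa and H2-K1). It was 1 without the variance trend, and 1 to 5 with single arrays left out. Over all genes the 764 of the main fit became 858 with quantile normalisation and 734 of 12533 without the _s_at and _x_at probe sets. With single arrays left out it was 631 to 866. The count of genes with a log2 change above 0 was 9 without Lira replicate 2, an alternative chosen after seeing the data. Class I differed by 0.146 to 0.312, class II by 0.127 to 0.385, and class I minus class II by -0.111 to 0.025. The 7 genes of 12736 past the adjusted threshold became 1 with no filter, 2 with every probe set, 0 with averaged probe sets (684 at an unadjusted p under 0.05), 0 without the variance trend (688) and 1 to 9 with single arrays left out. The lowest were 1 without Lira replicate 3 and 2 without placebo replicate 2. The cause of these differences was not tested. With a replicate block, 4 of all genes and 0 of the 10 passed. The replicate numbers gave no sign of pairing, since deviations of arrays with the same number correlated at -0.04, 0.09 and -0.09. Without detection calls in the values used, dim signals could not be told from background.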
